A study of Mus musculus with 16 samples.

Results

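The synaptic vesicle release machinery is the set of proteins that loads, docks and fuses transmitter-filled vesicles at nerve terminals. Vesicle SNARE proteins (synaptobrevins, Vamp genes) pair with plasma membrane SNAREs (syntaxins and SNAP-25) to pull the membranes together, synaptotagmins read the calcium signal, complexins clamp and then assist the assembled SNAREs, and syntaxin-binding proteins (Stxbp genes), Munc13 proteins (Unc13 genes), Rab3 GTPases and RIMs prepare the vesicle for release. Sympathetic neurons use this machinery to release noradrenaline, and neuroblastoma is a childhood tumor of the sympathetic lineage.

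The members were chosen by gene symbol: numbered synaptotagmins, synapsins, the Sv2 family, Vamp1 to Vamp8, the Rab3 genes, complexins, numbered syntaxins and syntaxin-binding proteins, with the genes Snap23, Snap25, Snap47, Syp, Sypl, Unc13a, Unc13b, Rims1 and Rims2. Of 67 matching rows among 24411 genes, 64 had at least 10 raw counts in 2 or more libraries and are the members described here. All 64 also passed the low-count filter of the test. Cplx4, Stx19 and Syt8, with at most 11, 8 and 7 counts in any library, were left out.

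RNA-Seq libraries (16 in all) came from 5 groups of mice. Celiac ganglia lacking the MYCN transgene gave 4 libraries of Runx1t1 wild-type mice and 3 labelled Runx1t1 het, celiac ganglia of Th-MYCN homozygotes gave 3 libraries of Runx1t1 wild-type mice and 2 labelled Runx1t1 het, and 4 libraries were tumors of Th-MYCN homozygotes wild type for Runx1t1. Th-MYCN mice carry human MYCN behind a tyrosine hydroxylase promoter, which acts in cells of the neuroectoderm, and the human gene is not among the mouse genes listed, so the transgene could not be checked. The Runx1t1 het genotype comes from an insertional knockout allele, and Runx1t1 encodes a transcriptional co-repressor. The transgenic line is on a 129/SvJ background and was crossed with the Runx1t1 line, CBB6-Runx1t1tm1Fc/H, so strain background may differ between animals and was not given for each library. Mice of both sexes were used. Ganglia were taken at 2 weeks of age, the age of the tumor-bearing mice was not given in the sources used here, and nothing says whether replicates came from separate animals, so p-values measure only the spread between these samples.

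Depth ran from 10692299 to 38618757 counts per library, with 6 ganglia under 20000000 and all 4 tumors above. Runx1t1 RNA did not separate the het label in MYCN ganglia. It was 25.3 and 49.9 CPM (counts scaled to library size with TMM factors) in those labelled het. In those with wild-type Runx1t1 it was 243, 23.4 and 111 CPM, so the groups are called labelled het throughout. One library stood apart, transgene-free wild-type replicate 2, whose lymphocyte markers summed to 1033 TPM (a unit scaled to library size and gene length) against at most 9.49 in the other libraries. Its myeloid markers (801 TPM) and endothelium markers (677 TPM) were also the highest of the 16 libraries, and its sympathetic neuron markers (11460 TPM) the lowest of the 12 ganglia. It was the lowest of the 7 transgene-free libraries for 47 of the 64 members, an order not counted over all genes. Tumor replicate 3 had 6906 TPM of liver markers against at most 348 elsewhere. The part of these cells in the results was not tested, and counts of calls without each of these libraries stand beside the comparisons they change. In bulk tissue, fewer cells of a type and less RNA per cell cannot be told apart.

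By its summed level the release machinery was less abundant in tumors than in any ganglion. The 64 members summed to between 4816 and 12510 TPM in the 7 transgene-free ganglia, between 4340 and 8159 in MYCN ganglia wild type for Runx1t1, and to 11780 and 10100 in those labelled het. In the 4 tumors the sum was 2296, 1798, 1854 and 2142 TPM, below every ganglion library. As a share of raw counts the members took 0.723 to 1.59% in transgene-free wild-type ganglia and 0.282 to 0.363% in tumors. On the TPM scale the median of all 16665 genes tested was itself lower in tumors by a log2 difference of −0.51, against −0.06 on the scale of the test, so TPM is used here for order between genes and not for fold changes.

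**Figure D1:**
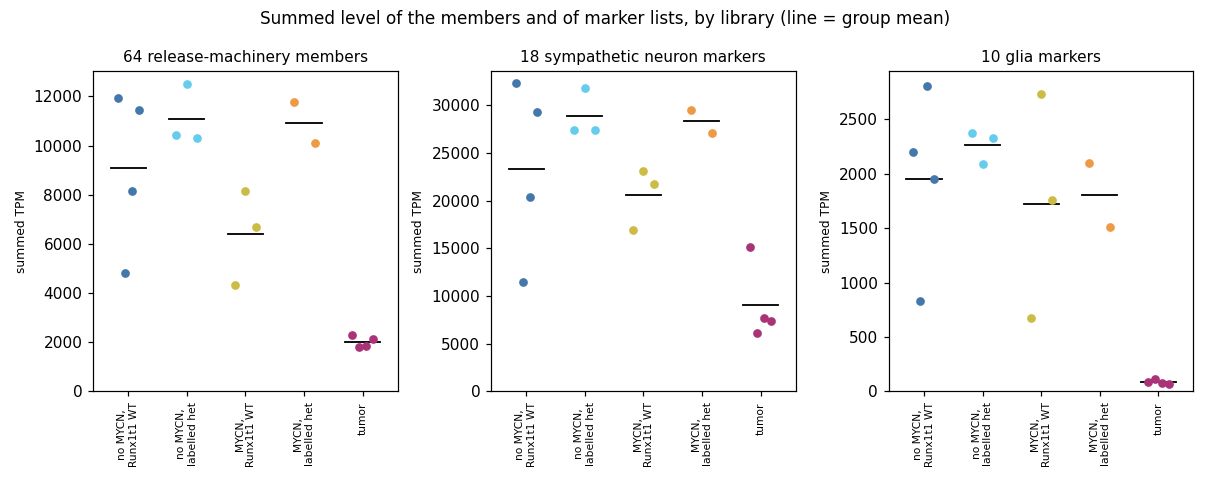
Summed TPM (linear axis from 0) of the 64 members, of 18 sympathetic neuron markers and of 10 glia markers, with 1 point per library, the 5 groups along the x axis and a line at each group mean. The tumors, between 1798 and 2296 TPM, lie below every ganglion for the members, as they do for the glia markers, while for the sympathetic neuron markers tumor replicate 1, at 15150 TPM, overlaps the lowest ganglion, at 11460 TPM.

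Several marker lists fell with the members and others did not. The 18 sympathetic neuron markers summed to between 11460 and 32320 TPM in transgene-free ganglia and between 6160 and 15150 TPM in tumors, an overlapping range, and 12 of the 18 were called lower and 3 higher in tumors, with a median log2 fold change of −1.46. Their defining genes Th and Dbh, enzymes of noradrenaline synthesis, were detected in every library but lower in tumors without overlap with the transgene-free ganglia: Th at 172 to 548 TPM against 786 to 1920 TPM, and Dbh at 44.1 to 245 TPM against 1182 to 4001 TPM. The overlap of the sums came from 1 tumor and 1 ganglion. In tumor replicate 1, Nefl at 3913 and Nefm at 4801 TPM made up most of the 15150 TPM. Transgene-free wild-type replicate 2 held the 11460 TPM, and the other transgene-free ganglia had 20409 TPM or more. The 10 glia markers were called lower in full, with a median log2 fold change of −5.11 and a sum of 65.3 to 112 TPM in tumors against 831 to 2809 TPM in transgene-free ganglia. Of 8 fibroblast markers 7 were lower and 1, Fbln1, higher (60.0 to 80.0 TPM in tumors, 2.56 to 24.5 TPM in transgene-free ganglia), and they summed to 234 to 573 TPM in tumors and 1741 to 7958 TPM in transgene-free ganglia. Endothelium (5 of 7 lower, median −1.66), adrenal cortex (5 of 6 lower, median −5.14) and skeletal muscle markers (5 of 6 lower, median −2.66) fell as well. Of 8 myeloid markers 3 were called higher and none lower (median 0.91), and of 6 chromaffin markers 2 were higher and 2 lower (median 0.80). The 5 liver markers were called higher (median 4.87), carried by tumor replicate 3 with a liver sum of 6906 TPM. The other tumors summed to 75.1, 12.6 and 2.6 TPM, not above the transgene-free range of 7.37 to 273.6 TPM. The part of these shifts in the members' changes was not tested.

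The first comparison asks how the machinery differs between tumors and ganglia that lack the oncogene. In edgeR's quasi-likelihood test with Benjamini-Hochberg adjustment over all genes, 43 of the 64 members (67.2%) were lower in tumors and 7 (10.9%) were higher, with 14 not called. Over all 16665 genes tested, 30.9% were lower and 30.6% higher. The median log2 fold change was −1.37 for the members and −0.06 for all genes. CPM values of tumors and transgene-free ganglia did not overlap for 33 members that were lower and 6 that were higher, while over all genes tested 21.5% were lower and 22.7% higher without overlap. Without tumor replicate 3 the counts were 42 lower and 7 higher. Without transgene-free wild-type replicate 2 they were 44 lower and 8 higher, Syt16 (−0.98, edgeR adjusted p = 0.025) and Unc13b (0.29, edgeR adjusted p = 0.037) being added.

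By role, each of the 4 Rab3 GTPases, which tether vesicles near release sites, was called lower, with a median log2 fold change of −2.58. Among the 16 synaptotagmins 10 fell and 2 rose, with a median of −1.56, and Syt7, Syt13, Syt15 and Syt16 were not called. Of the 8 vesicle coat and membrane proteins 7 fell, and of the 8 plasma membrane SNAREs 7 fell, Snap23 being the one not called. Of the 6 vesicle SNAREs 4 fell, while Vamp5 and Vamp8 were not called. The 9 syntaxins of endosomes, Golgi and other inner membranes had 5 lower, 1 higher and a median of −0.28. Of the 6 syntaxin-binding proteins 3 fell and 1 rose. Among the 3 complexins Cplx1 and Cplx2 fell and Cplx3 rose. The 4 active zone proteins divided differently, with Unc13a lower, Rims2 higher, and Rims1 and Unc13b not called.

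**Figure D2:**
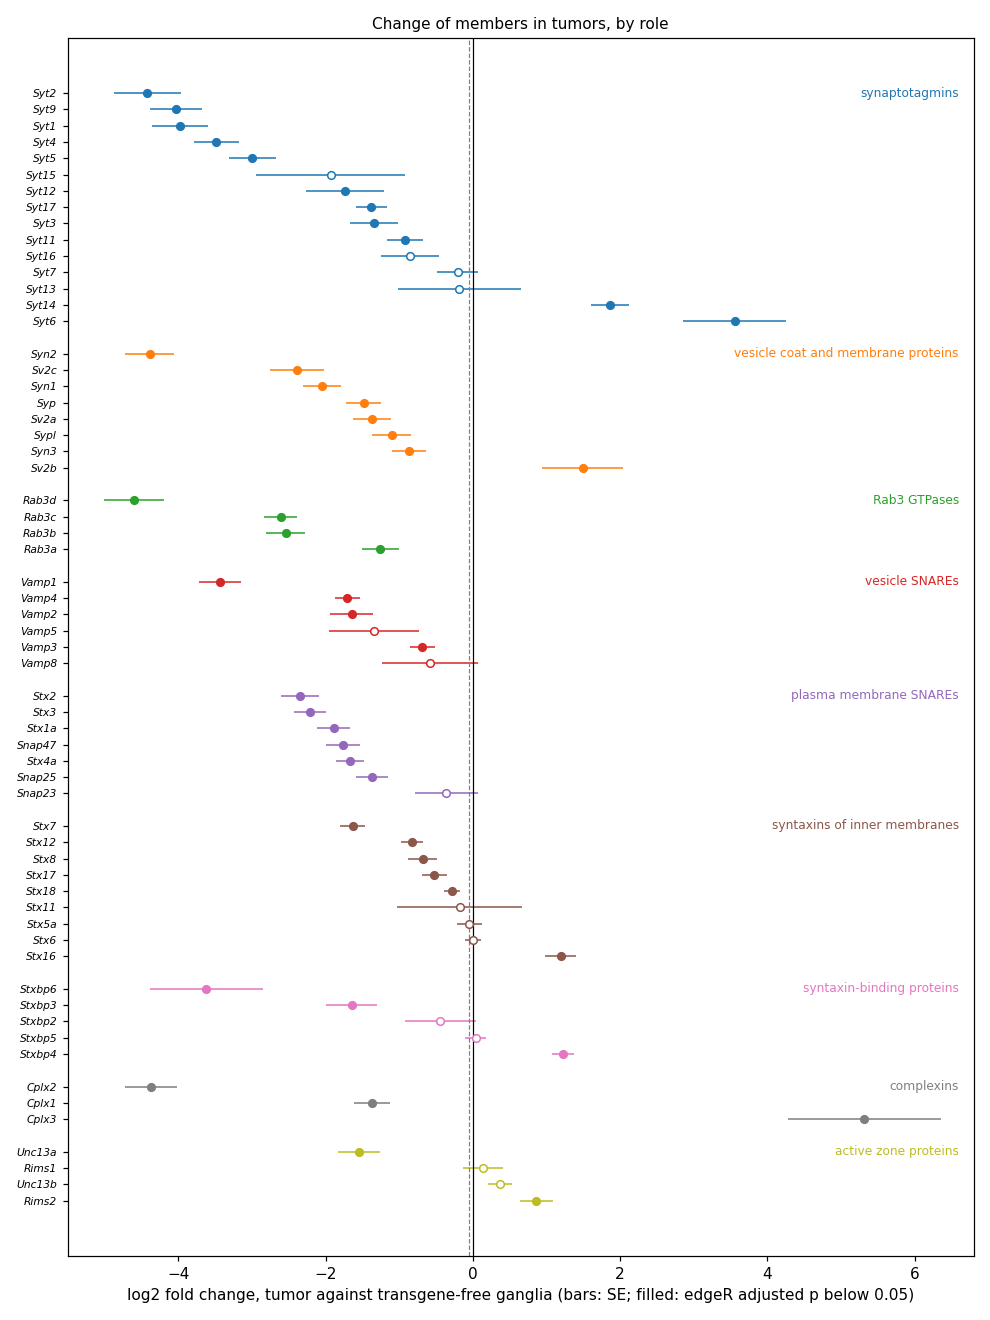
Log2 fold change of the members named on the y axis in 4 tumors against 7 transgene-free ganglia (x axis), ordered within its role, with bars for the standard error, filled points for edgeR adjusted p below 0.05 and a dashed line at the median of all genes, −0.06. Most points lie left of 0, the Rab3 genes all do, and Syt6, Syt14 and Cplx3 lie farthest right; Syt10, with 0 counts in tumors, is not drawn.

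Among calcium sensors and vesicle proteins, Syt1 and Syn2 fell much further than Syp and Sv2a. Syt1, the calcium sensor of fast release, ranged from 606 to 2190.0 CPM (median 1606) in transgene-free ganglia and was 63.6, 87.7, 89.4 and 143 CPM in tumors. It fell by 3.98 ± 0.38 on the log2 scale (SE, edgeR adjusted p = 2.1e-06). Syn2, a synapsin that anchors vesicles in the reserve pool, ranged from 504 to 1281 CPM (median 1142) in transgene-free ganglia and from 31.6 to 63 CPM in tumors, and fell by 4.39 ± 0.33. For both genes every tumor lay far below every ganglion. Syn1, its paralog, ranged from 247 to 636 CPM (median 499) in transgene-free ganglia, was 153, 98.3, 91.4 and 119 CPM in tumors, and fell by 2.05 ± 0.26. Synaptophysin (Syp), an integral vesicle protein and a common marker of neuroendocrine tumors, ranged from 241 to 642 CPM (median 549) in transgene-free ganglia. It was 239, 168, 159 and 177 CPM in tumors, fell by 1.48 ± 0.24, and its highest tumor came just under the lowest ganglion, replicate 2 of the transgene-free wild-type group. Sv2a, a vesicle glycoprotein, fell by 1.37 ± 0.26, from a range of 84.5 to 269.9 CPM (median 211) to 81.4, 72.2, 50.9 and 100.5 CPM, and here the groups overlapped at that same ganglion.

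Of the fusion proteins, Snap25, a plasma membrane SNARE, ranged from 316 to 606 CPM (median 567) in transgene-free ganglia and was 255, 237, 193 and 138 CPM in tumors. It fell by 1.37 ± 0.22 (edgeR adjusted p = 0.00011). Vamp2, the main synaptobrevin of neurons, ranged from 195 to 630.3 CPM (median 381) in transgene-free ganglia and was 144, 106, 105 and 150.3 CPM in tumors, a fall of 1.65 ± 0.29. Neither gene's tumors overlapped the ganglia. Stx1a, the neuronal syntaxin, was 54.8 to 117 CPM (median 108) in transgene-free ganglia and 36.3, 22.1, 24.7 and 26.5 CPM in tumors and fell by 1.89 ± 0.23. Here too every tumor lay below every transgene-free ganglion.

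Among the proteins that prepare fusion, Rab3a, the main Rab3 of neurons, had 121 to 339 CPM (median 279) in transgene-free ganglia against 110.1, 97.4, 96.2 and 143 CPM in tumors, overlapping, and fell by 1.25 ± 0.25. Unc13a (Munc13-1, which primes docked vesicles) had 99.2 to 285 CPM (median 222) in transgene-free ganglia against 113, 48.6, 48.6 and 76.2 CPM in tumors and fell by 1.54 ± 0.29. For Rab3a and Unc13a a single tumor reached the ganglion range. Rims1, a scaffold of the release site, showed no call: 9.11 to 15.7 CPM (median 11) in transgene-free ganglia and 21.7, 11.1, 6.67 and 13.6 CPM in tumors, a log2 fold change of 0.14 ± 0.28 that became −0.20 without tumor replicate 1.

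**Figure D3:**
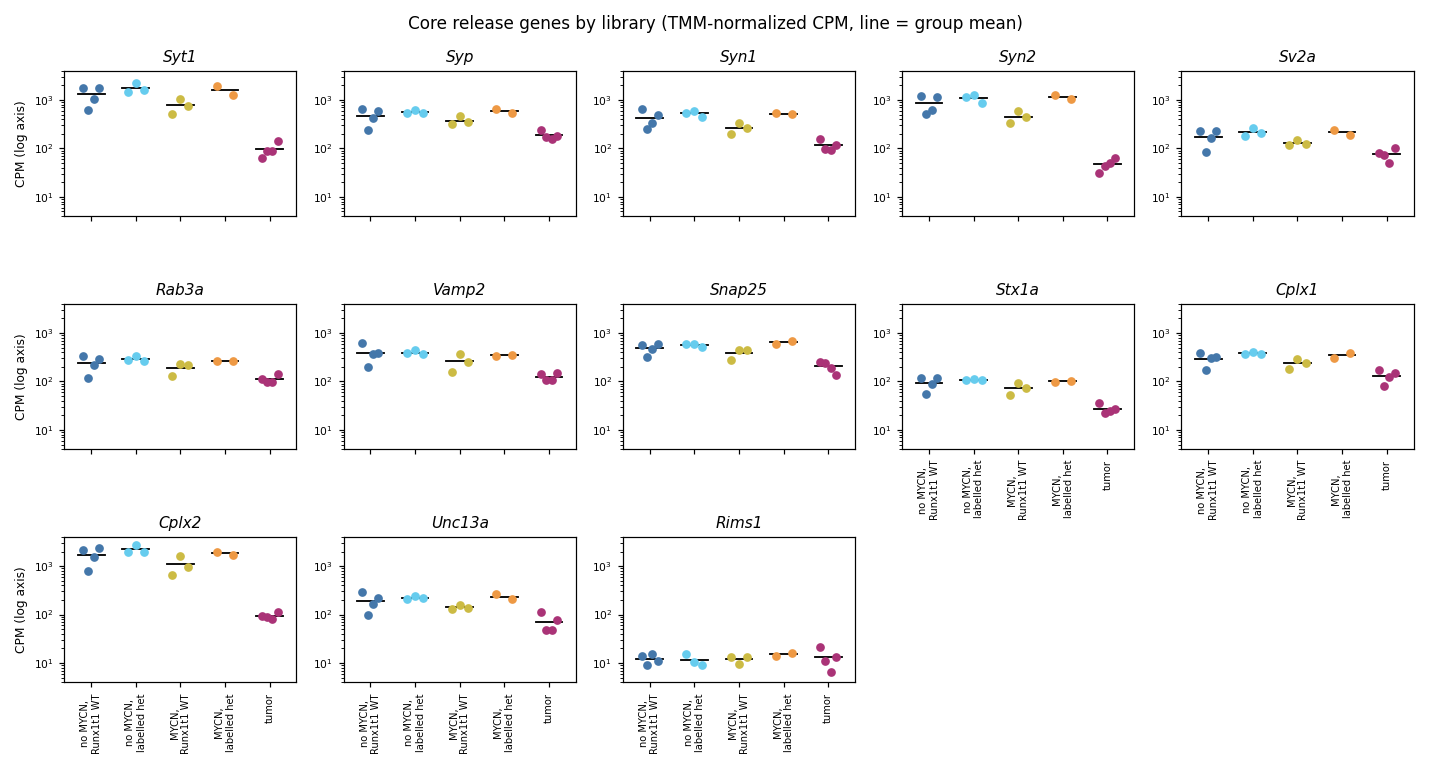
CPM on a log axis of core members in each library, with the 5 groups along the x axis and a line at each group mean. Syt1, Syn2 and Cplx2 drop farthest in tumors, Snap25, Syp and Rab3a less, and Rims1 tumors, from 6.67 to 21.7 CPM, overlap the ganglia.

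Beyond the core genes, the remaining Rab3 members fell together: Rab3c from 381 to 832 CPM in transgene-free ganglia to between 81.9 and 147 CPM in tumors (−2.61 ± 0.22), and Rab3b from 222 to 533 CPM to between 55.9 and 86.7 CPM (−2.54 ± 0.26). Among other synaptotagmins, Syt5, a calcium sensor of dense-core vesicles, went from 41.4 to 95.1 CPM to 16.2, 5.68, 9.24 and 8.06 CPM (−2.99 ± 0.32). Syt7, a slower calcium sensor of facilitation and asynchronous release, was not called, with 56.2 to 156 CPM (median 119.9) in transgene-free ganglia and 68.8, 79.2, 77.7 and 178 CPM in tumors (−0.21 ± 0.28), and tumor replicate 4 lay above every one of those ganglia. Vamp1, the synaptobrevin of fast motor and sensory synapses, fell by 3.44 ± 0.29, from 28.6 to 54.1 CPM to between 2.40 and 5.79 CPM. Vamp3, its widely expressed relative, fell by 0.68 ± 0.17 and overlapped. Sv2c, a vesicle glycoprotein, fell by 2.39 ± 0.36, from 140 to 674 CPM to between 58.8 and 111 CPM. The range of these falls shows that members of a family did not share one fold change.

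Of the syntaxins of inner membranes, some were near 0 and others were not. Stx6 of the trans-Golgi (0.01 ± 0.11) and Stx5a of the early Golgi (−0.05 ± 0.16) were not called, and Stx18 of the endoplasmic reticulum (−0.28 ± 0.11), Stx17 of autophagosomes (−0.52 ± 0.17) and Stx12 of endosomes (−0.82 ± 0.15) fell. Stx7 of late endosomes had the largest fall of these syntaxins, from 81.8 to 129 CPM to 49.7, 27.8, 30.5 and 32.0 CPM (−1.63 ± 0.17). Several members not called are used by blood cells: Vamp8, Stx11 and Stxbp2 serve granule release in platelets and lymphocytes. Transgene-free wild-type replicate 2 was the highest ganglion of its 7 for each of these 3, at 12.5, 16 and 33.5 CPM, beside its lymphocyte markers, and the part of those cells was not tested.

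The largest falls, by the rule applied to called members with a mean TPM of at least 1, were those of Syt10, Rab3d, Syt2, Syn2 and Cplx2. Cplx2 (chromosome 13, 54301964 to 54383923, GRCm38) encodes complexin-2 and ranged from 799.6 to 2690.0 CPM (median 1984) in transgene-free ganglia. In tumors Cplx2 was 92.9, 87.9, 81.3 and 115 CPM, a fall of 4.37 ± 0.35 (edgeR adjusted p = 7.4e-07). Cplx1, encoding complexin-1, had 171 to 413 CPM (median 366) in transgene-free ganglia against 171, 79.2, 121 and 149.9 CPM in tumors and fell by 1.37 ± 0.24. Thus the TPM ratio of Cplx2 to Cplx1 lay between 1.95 and 3.06 in transgene-free ganglia and between 0.229 and 0.468 in tumors, an order that turned over. Likewise the ratio of Syn2 to Syn1 was 1.60 to 2.00 in transgene-free ganglia and 0.180 to 0.475 in tumors, and that of Syt1 to Syt11 was 1.89 to 2.44 and 0.158 to 0.321. These pairs were chosen after their values were seen and are given without a test.

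Rab3d (chromosome 9, 21907491 to 21918199), a Rab3 known from secretory granules of non-neuronal cells, had 157 to 389 CPM (median 345) in transgene-free ganglia. In tumors it was 23.3, 9.32, 8.10 and 12 CPM, and it fell by 4.6 ± 0.41 (edgeR adjusted p = 1.3e-06). Syt2 (chromosome 1, 134646534 to 134753149), a fast calcium sensor closely related to Syt1, had 69.8 to 338 CPM (median 231) in transgene-free ganglia and 14.4, 5.31, 8.99 and 12.9 CPM in tumors and fell by 4.42 ± 0.46. In both genes the highest tumor was several times below the lowest ganglion.

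Syt10 (chromosome 15, 89773714 to 89841980), a synaptotagmin linked to growth factor secretion in neurons, was not counted at all in the tumors. The 7 transgene-free ganglia held 1.75 to 5.04 CPM (median 3.64), MYCN ganglia labelled het 7.74 and 6.02 CPM, MYCN ganglia with wild-type Runx1t1 0.275, 0.229 and 0.852 CPM, and each of the 4 tumors 0 counts. Thus the 4 levels did not overlap. Against a floor of 3 counts per library, Syt10 was at least 35.1-fold lower in tumors than in transgene-free ganglia, at least 4.61-fold lower than in MYCN ganglia of Runx1t1 wild-type mice and at least 70.2-fold lower than in those labelled het. The floor covers counting error only. Replicate 4, at 0.852 CPM, carries most of the mean behind the 4.61-fold bound, and replicate 1 of that group held 3 counts, the floor itself.

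The rank order within the machinery changed with these falls. By mean TPM the leading members of transgene-free ganglia were Cplx2 (980 ± 326, SD, n = 7), Syt1 (790.0 ± 288), Syn2 (677 ± 222) and Snap25 (658 ± 143), whose neighbours overlap within their SD. In tumors Snap25 led with 189 ± 46.8 TPM (SD, n = 4), followed by Rab3a with 158 ± 29.5, Syp with 144 ± 27.4 and Syt11 with 141 ± 35.8, each within 1 SD of its neighbour. Cplx2 was 20th in tumors at 35.2 ± 5.13 TPM, Syt1 17th and Syn2 27th.

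The 7 members higher in tumors were Syt6, Syt14, Stxbp4, Stx16, Rims2, Cplx3 and Sv2b. Syt14 (chromosome 1, 192882653 to 193035871), a synaptotagmin that does not bind calcium, had 9.45 to 22.1 CPM (median 18.6) in transgene-free ganglia and 55.8, 68.9, 60.9 and 77.3 CPM in tumors, and rose by 1.86 ± 0.26 (edgeR adjusted p = 2.9e-05). Syt6 (chromosome 3, 103575245 to 103645567), known from the acrosome reaction of sperm, had 0.0867 to 1.76 CPM (median 0.635) in transgene-free ganglia and 18.4, 4.41, 6.39 and 5.14 CPM in tumors and rose by 3.56 ± 0.70. Every tumor exceeded every transgene-free ganglion for both genes. Stxbp4 (chromosome 11, 90476492 to 90638136), a syntaxin-4-binding protein studied in insulin-regulated transport, had 14.6 to 19.0 CPM (median 15.9) against 36.5, 37.4, 36.6 and 44.9 CPM and rose by 1.22 ± 0.15. Stx16 (chromosome 2, 174076260 to 174099771), a syntaxin of the trans-Golgi network, had 39.0 to 63.7 CPM (median 47.1) against 78.9, 114, 128 and 119.6 CPM and rose by 1.2 ± 0.21. Rims2 (chromosome 15, 39198286 to 39684372), a release-site scaffold, had 39.2 to 104 CPM (median 96.4) against 230.2, 135, 129 and 157 CPM and rose by 0.86 ± 0.23 (edgeR adjusted p = 0.0045). None of these 3 ranges overlapped.

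Cplx3 and Sv2b were called higher at very low levels. Cplx3, a complexin of retinal ribbon synapses, had 0 to 0.291 CPM in transgene-free ganglia and 0.388, 1.47, 3.46 and 6.01 CPM in tumors, which are 10, 52, 97 and 214 counts. Sv2b, a vesicle glycoprotein, had 0.347 to 1.36 CPM (median 0.857) in transgene-free ganglia and 0.893, 5.82, 0.856 and 1.80 CPM in tumors, overlapping, so that tumor replicate 2 carries most of the difference.

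**Figure D4:**
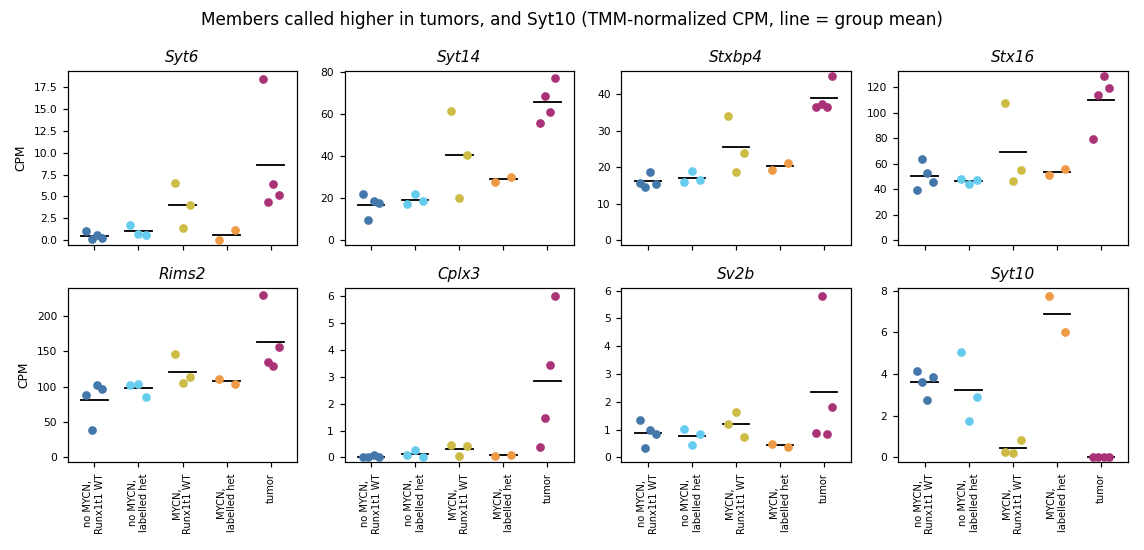
CPM (linear axis) of the 7 members called higher in tumors and of Syt10 in each library, with the 5 groups along the x axis and a line at each group mean. Of the 7 higher members all but Sv2b have every tumor above every transgene-free ganglion, MYCN ganglion replicate 1 with wild-type Runx1t1 lies near the tumors for Syt14, Stxbp4 and Stx16, and Syt10 is at 0 in tumors.

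MYC-family proteins bind the E-box, of which CACGTG is the classic form, and RefSeq promoter windows (250 bases before to 50 after an annotated start, which can lie inside the gene's full span, GRCm38.p6) were searched for these letters, which read the same on both strands. Windows were given for 51 of the 64 members. Of the members higher in tumors, 4 of the 6 with a window held CACGTG (Cplx3, Sv2b, Syt14 and Syt6), against 1 of 33 lower members (Vamp4, a synaptobrevin of the trans-Golgi) and 3 of 12 not called (Stx6, Stxbp2 and Unc13b). Over all tested genes with a window, 12.4% of those higher, 9.80% of those lower and 10.9% of all 12404 held it. A match is a description of letters and not a bound site, and genes with several windows have more chances to match: Sv2b matched in 1 of 4 and Syt6 in 2 of 3. The windows of Cplx3 (chr9:57606232-57606531, minus strand), Syt14 (chr1:193035726-193036025, minus strand), Syt6 (chr3:103574995-103575294, plus strand) and Vamp4 (chr1:162570265-162570564, plus strand) are shown as the 3 clearest higher members with the letters and the single lower one, with CACGTG in capitals.

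Cplx3: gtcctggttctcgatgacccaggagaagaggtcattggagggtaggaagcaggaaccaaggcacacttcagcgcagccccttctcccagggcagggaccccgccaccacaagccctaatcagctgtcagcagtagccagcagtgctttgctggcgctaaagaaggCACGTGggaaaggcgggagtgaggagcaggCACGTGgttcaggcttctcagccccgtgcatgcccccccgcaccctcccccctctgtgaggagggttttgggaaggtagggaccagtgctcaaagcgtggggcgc
Syt14: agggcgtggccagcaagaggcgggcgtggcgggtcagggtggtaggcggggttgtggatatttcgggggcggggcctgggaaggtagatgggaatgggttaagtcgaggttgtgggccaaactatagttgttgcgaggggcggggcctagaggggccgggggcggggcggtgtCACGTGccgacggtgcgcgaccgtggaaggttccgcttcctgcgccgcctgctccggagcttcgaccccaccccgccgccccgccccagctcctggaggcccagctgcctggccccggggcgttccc
Syt6: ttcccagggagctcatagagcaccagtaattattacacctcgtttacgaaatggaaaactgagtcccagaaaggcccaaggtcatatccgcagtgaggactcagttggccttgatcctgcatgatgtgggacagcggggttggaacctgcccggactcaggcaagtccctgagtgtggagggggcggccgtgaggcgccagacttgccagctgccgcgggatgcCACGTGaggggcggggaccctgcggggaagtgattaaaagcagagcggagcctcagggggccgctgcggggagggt
Vamp4: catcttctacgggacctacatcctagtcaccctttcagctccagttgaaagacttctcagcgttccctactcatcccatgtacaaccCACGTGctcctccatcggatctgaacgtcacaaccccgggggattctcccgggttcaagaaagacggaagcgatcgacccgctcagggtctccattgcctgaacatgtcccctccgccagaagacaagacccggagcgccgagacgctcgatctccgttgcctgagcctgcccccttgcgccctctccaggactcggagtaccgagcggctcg

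Tumors were next compared with MYCN ganglia of the same labelled Runx1t1 genotype, which asks what separates tumor from pre-tumor tissue when both carry the transgene. This comparison shares its tumors with the first. In edgeR's test 33 members (51.6%) were lower and 1 (1.56%) was higher, against 20.5% and 14% of all genes, with a median log2 fold change of −0.91 for members and −0.01 for all genes. Also lower were 10 of 10 glia markers (median −4.93), 6 of 8 fibroblast (−2.69), 4 of 6 skeletal muscle (−3.15) and 10 of 18 sympathetic neuron markers (−0.99). Of 6 chromaffin markers 1 was higher and 1 lower, and no myeloid or liver marker was called. The part of these shifts was not tested. The 5 named falls were Syt10, Rab3d (−3.72 ± 0.42), Cplx2 (−3.52 ± 0.36), Syt2 (−3.43 ± 0.47) and Syt9 (−3.38 ± 0.37). Syt9, a calcium sensor of dense-core vesicles (chromosome 7, 107370349 to 107548656), was 83.0, 203 and 127 CPM in these ganglia and 13.5, 19.3, 13.2 and 7.13 CPM in tumors. Stxbp4, at 34.0, 18.6 and 23.9 CPM in those ganglia, was the single higher member with 0.61 ± 0.19 (edgeR adjusted p = 0.025), a call lost without ganglion replicate 3 (0.43, edgeR adjusted p = 0.12), without ganglion replicate 4 and without tumor replicate 4. The count of lower members was 23 without ganglion replicate 3 of this group and 28 without tumor replicate 3. Calls over all genes fell too, from 5755 to 3549 and 5079.

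Against MYCN ganglia labelled Runx1t1 het, 39 members (60.9%) were lower in tumors and 6 (9.38%) higher in edgeR's test, beside 23.5% and 22% of all genes, with a median of −1.33 for members and 0.07 for all genes. Also lower were 10 of 10 glia markers (median −5.13), 6 of 8 fibroblast (−2.90) and 5 of 6 adrenal cortex markers (−4.73). Of 18 sympathetic neuron markers 12 were lower and 1 higher (−1.48), and no myeloid, liver or skeletal muscle marker was called. The part of these shifts was not tested. Besides Syt10, the named falls were Syn2 (−4.63 ± 0.37), Rab3d (−4.56 ± 0.45), Syt2 (−4.35 ± 0.50) and Cplx2 (−4.30 ± 0.39). Higher were Syt6 (3.81 ± 1.18), Syt14 (1.18 ± 0.38), Stx16 (1.04 ± 0.31) and Stxbp4 (0.94 ± 0.22), with Cplx3 and Sv2b. With 2 ganglia in this group, leaving out replicate 1 took the higher count to 0 and leaving out replicate 2 took it to 2, while calls over all genes went from 7582 to 4313 and 5704. Each of those 2 fits keeps 1 ganglion in this group, so the spread comes from the other groups only. Without tumor replicate 3 there were 36 lower and 6 higher. Over the 3 comparisons, which share their tumors, 32 members were called lower in each, 1 (Stxbp4) higher in each, and 14 in none. Over all genes tested these shares were 18.2%, 12.7% and 37.1%.

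The ratio of a neuronal member to a paralog, taken within a library, does not depend on scaling between libraries. Pairs were compared over 3 contrasts (18 tests, pseudocount 0.1 on TPM, two-sided exact permutation tests, Benjamini-Hochberg adjusted), and 3 ratios passed the threshold, all between tumors and transgene-free ganglia. The log2 ratio of Rab3a to Rab3d was 3.79, 4.91, 5.09 and 5.11 in tumors and 1.2 to 1.45 in transgene-free ganglia, a difference of 3.43. That of Unc13a to Unc13b was 0.11, −0.91, −0.60 and −0.10 in tumors and 1.13 to 1.85 in ganglia, a difference of −1.94, and that of Vamp2 to the widely expressed Vamp3 was 1.63 to 2.37 against 2.58 to 3.62, a difference of −0.93. The groups did not overlap in these 3 ratios, each with an exact p = 0.00606, the smallest that 4 against 7 libraries allow, and an adjusted p = 0.0364. Snap25 to Snap23 (difference −1.06, exact p = 0.145) and Syp to Sypl (−0.37, exact p = 0.473) did not pass. Against the 3 ganglia of Runx1t1 wild-type MYCN mice the smallest possible exact p is 0.0571, so that contrast cannot pass, although tumor values of the Rab3a to Rab3d and Unc13a to Unc13b ratios did not overlap those ganglia either.

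**Figure D5:**
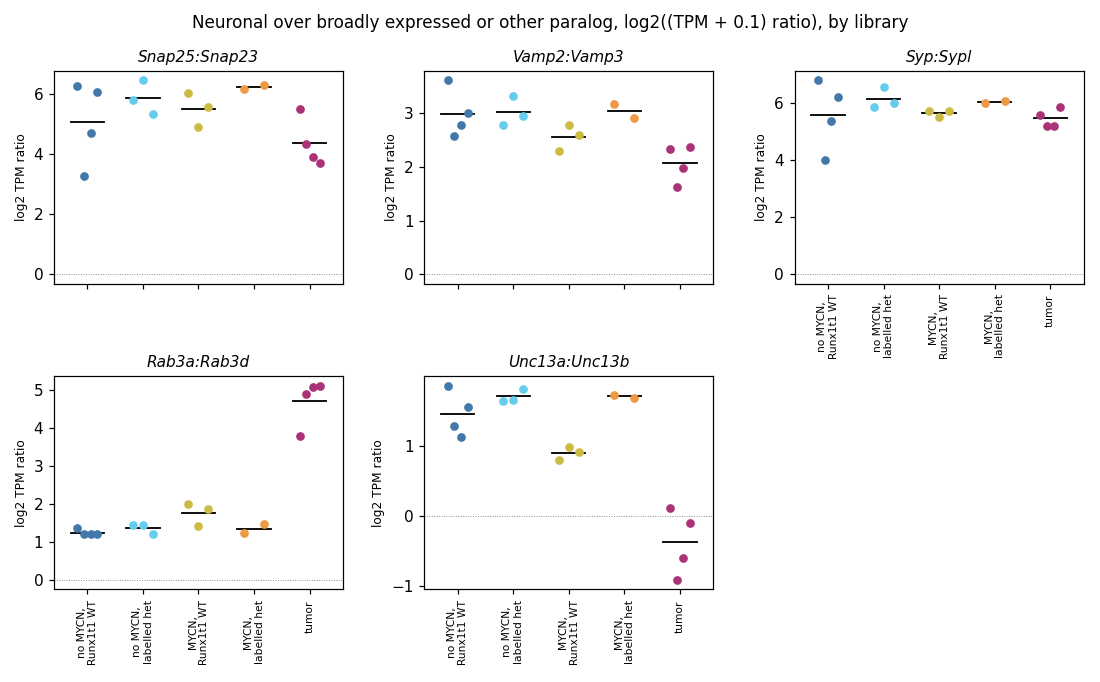
Log2 ratio of TPM (pseudocount 0.1) of each pair in each library, with the 5 groups along the x axis and a line at each group mean. Rab3a:Rab3d is higher and Vamp2:Vamp3 and Unc13a:Unc13b lower in the 4 tumors than in the 7 transgene-free ganglia without overlap, while Snap25:Snap23 and Syp:Sypl overlap.

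The transgene was next compared within ganglia. In wild-type Runx1t1 ganglia, MYCN homozygotes against transgene-free mice, 1 member (Syt10) was lower and none higher in edgeR's test, with 0.102% of all genes lower and 0.834% higher. Without transgene-free wild-type replicate 2, edgeR called 3 members lower, Rab3b (−1.02), Rab3c (−0.88) and Syt10 (−2.91), with 675 genes called in all. Without MYCN ganglion replicate 3 it called 5, Syt6, Syt14 and Stxbp4 higher and Syt10 and Stx4a lower, with 1811 genes called in all. With every library 156 genes were called. Without MYCN ganglion replicate 1 or 4 of this comparison, no member and 0 genes in all were called. The same held without transgene-free wild-type replicate 1, 3 or 4. At an unadjusted p under 0.05 there were 11 members (17.2%), near the 19.8% of all genes, and DESeq2 called 3 members higher and 2 lower beside 6.11% and 2.33% of all genes. The median was −0.36 for members and −0.04 for all genes, and 12 of the 64 lay above 0. Syt10, at 0.275, 0.229 and 0.852 CPM against 1.75 to 5.04 CPM over all transgene-free ganglia, fell by 2.93 ± 0.59 (edgeR adjusted p = 0.0486), a call that most alternatives do not keep although the direction held in each. The next smallest adjusted p values in edgeR were 0.067 for Syt14, with 61.5, 20.1 and 40.4 CPM in MYCN ganglia (1.27 ± 0.32), and 0.096 for Stxbp4 (0.66 ± 0.19). MYCN ganglion replicate 1 was the highest of its 3 for 6 of the 7 members that were higher in tumors. It was the lowest for 38 of the 43 that were lower and for 43 of all 64, orders not counted over all genes. Its glia markers summed to 676 TPM against 2729.8 and 1755.8 in its group's other ganglia. Fibroblast markers summed to 992.1 TPM against 3644.1 and 3006.5. Its sympathetic neuron markers were the lowest of the 3 (16890 TPM) and its myeloid markers the highest (216 TPM). No marker list had a called gene, with medians of −5.99 for lymphocyte and 1.00 for skeletal muscle markers. The part of these shifts was not tested.

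In ganglia labelled het, no member was called for MYCN, 0% of all genes were called in either direction, and no member reached an unadjusted p under 0.05 in edgeR, beside 1.45% of all genes. DESeq2 called none either, with 0.058% of all genes higher and 0.0322% lower. The median was −0.09. The test of the difference between the genotypes' MYCN effects (interaction) called no member and 0% of genes, with 3 members (4.69%) at an unadjusted p under 0.05 (Rab3c, Syt10 and Syt6) beside 5.62% of all genes. DESeq2 called 1 member, Syt10, higher, beside 0.118% of all genes higher and 0.0743% lower. Syt10 had an interaction of 4.03 ± 0.84 on the log2 scale (edgeR adjusted p = 0.845).

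Labelled het against wild-type Runx1t1 within MYCN ganglia gave no called member in edgeR, beside 0.012% of all genes higher and 0% lower. There were 14 members (21.9%) at an unadjusted p under 0.05 beside 12.6% of all genes. DESeq2 called 3 members higher (Rab3c, Syn2 and Syt10) and none lower, beside 1.19% and 0.7% of all genes. The fitted log2 difference was above 0 for 47 of 64 members, with a median of 0.40 against −0.09 for all genes. Syn2 was 1274 and 1044 CPM in the labelled het ganglia and 329, 595 and 438 CPM in the wild-type ones (1.35, edgeR adjusted p = 0.27), and Syt1 was 1939 and 1283 CPM against 521, 1061 and 734 CPM (1.06, edgeR adjusted p = 0.38). For both genes the groups did not overlap, which so few libraries can give by chance. Overlap was not counted over all genes for this comparison. No marker list had a called gene here. The sum of sympathetic neuron markers was 29550 and 27110 TPM against 16890 to 23170 TPM (11 of 18 above 0, median 0.21). Adrenal cortex markers were above 0 in 6 of 6 (median 2.61), and skeletal muscle markers in 0 of 6 (median −3.03), as were lymphocyte (median −2.14), liver (−2.25), erythroid (−1.40) and myeloid markers (−0.68). Both labelled het libraries had under 20000000 counts, and the part of cell makeup and depth was not tested. In transgene-free ganglia the same comparison called no member in edgeR and 0% of all genes, with 1 member (1.56%) at an unadjusted p under 0.05 beside 4.12% of all genes. DESeq2 called none, with 0.00619% of all genes higher and 0.0248% lower. The median was 0.20 for members and −0.03 for all genes. Sympathetic neuron markers were above 0 in 18 of 18 (median 0.31). Lymphocyte markers (median −6.39) and myeloid markers (median −1.88) were above 0 in none. Transgene-free wild-type replicate 2 is in the wild-type group here, and without it edgeR called 0 genes as well. The part of cell makeup was not tested.

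Other genes of the release pathway, listed from textbook roles outside the members, were counted in the same way. Of 54 such genes, 36 were lower and 5 higher in tumors against transgene-free ganglia in edgeR's test, beside 30.9% and 30.6% of all genes, with a median of −1.32 against −0.06 for all genes. Doc2a, a calcium-binding protein of vesicle release, rose by 3.83 ± 0.36, from 2.72 to 5.18 CPM in transgene-free ganglia to 49.2, 51.5, 57.2 and 70.9 CPM, and was 40.7, 6.03 and 22 CPM in MYCN ganglia with wild-type Runx1t1. Rab27a, a Rab of granule docking, rose by 1.67 ± 0.25, from 32.9 to 44.2 CPM to 106, 97.4, 100.2 and 156 CPM, whereas its paralog Rab27b fell by 4.69 ± 0.33, from 17.2 to 44.1 CPM to 1.55, 1.02, 0.749 and 1.52 CPM. Syngr4, a synaptogyrin, rose by 2.87 ± 0.92 at no more than 1.83 CPM. Sncg (gamma-synuclein) fell by 6.65 ± 0.69, and Rph3a, a Rab3 effector, by 4.28 ± 0.45. Against MYCN ganglia with wild-type Runx1t1, 27 of the 54 were lower and 3 higher, beside 20.5% and 14% of all genes. Against those labelled het 31 were lower and 3 higher, beside 23.5% and 22%.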

How the data were processed

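The study was run on mouse RNA-Seq libraries (total RNA, SMARTer Stranded Total RNA-seq v2). Per the submitters' processing notes, the authors used STAR, SAMtools and RSEM with mm10, and deposited RSEM expected counts per gene, not normalized. The TPM values the authors deposited beside them are adjusted for gene length and library size. RSEM shares reads between near copies, so values of paralogs can be uncertain. Whether counting used strand is not given in the sources used here. Hom in the headers was read as wild-type Runx1t1.

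Expected counts were rounded. R 4.3.3 with edgeR 4.0.16 filtered low genes (filterByExpr), scaled by TMM and fitted all 5 groups in 1 quasi-likelihood model, with Benjamini-Hochberg adjustment over the 16665 genes tested and a threshold of 0.05. DESeq2 1.42.0 was the alternative tool, beside the others of the closing section. Ratios were tested in Python 3.11.15 with SciPy 1.17.1. The members and lists were chosen with earlier results of these data known, and roles were set after some values were seen. Some members and 1 pair are not reported here, though all counts, medians and adjustments include them. Values per library are given for core genes of textbook role and, per comparison, for at most 5 called members higher and 5 lower with the largest change and a mean TPM of at least 1 (other release genes, 3 each), Cplx3, Sv2b, Syt5, Syt7, Stx7, the other members described beyond the core genes and those in pairs being exceptions chosen after their values were seen. On simulated counts for tumors against transgene-free ganglia (200 of 16425 genes changed), edgeR recovered 100% of log2 changes of 2 and 69.7% of changes of 1, with 12 false calls. Changes of 1 and 2 were recovered in 45% and 99% for MYCN in wild-type ganglia, and in 16.3% and 89.2% for labelled het against wild type in MYCN ganglia. The simulated spread was set by a formula from the mean count and was not estimated from these libraries. Groups shared a common baseline and only well-counted genes were changed, so these rates need not hold for the real libraries. Depth and replicate number limit precision. Coordinates and promoter windows are RefSeq's on GRCm38.p6, and the positions of all 64 members were matched.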

Additional observations from a re-analysis of the deposited data

Results flagged for a closer look

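Among 48 groups of 4 libraries examined for a library far from the others, 2 stood out, and chance gives about 1 in 20. Both were in tumor replicate 1. Syt6 was 13.02 TPM there, with the other 3 tumors between 3.02 and 4.12 TPM. Syp was 184.62 TPM there, against 127 to 136 TPM in the other tumors. The same library had the highest sum of sympathetic neuron markers among tumors, 15150 TPM against 6160 to 7644 in the others. The part of this difference was not tested.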

How the results depend on the processing

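Counts of members lower in tumors stayed within 1.5 times under every alternative run: 42 to 45 of the main 43 against transgene-free ganglia, 23 to 40 of 33 against MYCN ganglia with wild-type Runx1t1 and 32 to 40 of 39 against those labelled het. The 7 higher members against transgene-free ganglia were 6 to 8. The single higher member against MYCN ganglia with wild-type Runx1t1 became 3 in DESeq2, 0 with the replicate number as a block, 2 with a term for depth, 0 when the groups compared were fitted alone, 3 in libraries over 20000000 counts, and 0 to 3 with 1 library left out. The 6 higher against those labelled het were 0 to 6 with 1 library left out.

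For MYCN in wild-type ganglia the 1 call became 5 in DESeq2 (Rab3c, Stxbp4, Syt10, Syt14 and Syt6), 0 without a filter, 0 with the replicate block, 0 with the depth term, 0 in a fit of the groups compared, 0 in deep libraries, and 0 to 5 with 1 library left out. The adjusted p of Syt10 ran from 6.3e-05 (DESeq2) to 0.546 (edgeR, deep libraries). For labelled het against wild type in MYCN ganglia the 0 calls became 3 in DESeq2 and 0 to 2 with 1 library left out, and the interaction gave 1 in DESeq2. The cause was not tested. Leaving out 1 library took Rims1 in tumors against transgene-free ganglia from 0.14 to between −0.20 (without tumor replicate 1) and 0.36. Deep libraries were not run against MYCN ganglia labelled het, which have none.

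Of the 3 ratios past the threshold, none passed with fewer libraries, where fewer permutations exist. In deep libraries the differences were −0.94 for Vamp2:Vamp3, 3.46 for Rab3a:Rab3d and −1.91 for Unc13a:Unc13b (adjusted p = 0.171, exact p = 0.0286, the smallest possible). With 1 library left out they ran from −1.03 to −0.78, from 3.30 to 3.74 and from −2.10 to −1.76. Deep libraries also reversed Snap25:Snap23 for MYCN against transgene-free ganglia (−0.41). With 1 library left out, Syp:Sypl for the same contrast ran from −0.34 to 0.13, so its sign is not settled.

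Correlation of deviations gave no sign that replicate numbers pair the samples. It ran from −0.32 to 0.32 over 25 same-numbered pairs, with a median of −0.01 and 7 over 0.1. Over 76 other pairs it ran from −0.32 to 0.32, with a median of −0.02 and 16 over 0.1. In ganglia the numbers did go with depth: replicates 1 and 2 had under 20000000 counts, and replicates 3 and 4 had more. With the replicate block, 43 members were lower and 7 higher in tumors against transgene-free ganglia.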
